A study of Mus musculus with 16 samples.

Results

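Trim16, Fbxw10 and Smcr8 are 3 genes of mouse chromosome 11 whose RNA level separated the HP1α mouse line from the HP1γ mouse line in memory CD4+ T cells. They are 3 of the 56748 genes in the count table, taken by gene symbol, and each symbol matched 1 entry. The members were selected by their difference in RNA level between the lines, in the wild-type and in the knockout samples. Both differences are therefore given here as a description with no test. The comparison of knockout with wild-type littermates was not itself used to choose them and is tested. A choice on both line differences can still favour genes with like levels in WT and KO samples of a line.

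HP1α (gene Cbx5) and HP1γ (gene Cbx3) are proteins that bind the heterochromatin mark H3K9me3 and take part in gene silencing. The study profiled polyadenylated RNA of splenic memory CD4+ T cells, sorted as CD4+CD25low/-CD62L-CD44high cells, to ask what the loss of either protein changes. There were 16 samples in 4 groups of 4. Wild-type and knockout mice of a line were littermates of the same sex, 6 to 12 weeks old, on a mixed 129/Sv and C57BL/6 background. The study's reporting summary states that male mice were used in view of the sequencing analyses.

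The HP1α KO samples came from Hp1a-/- mice, in which a floxed allele had been removed by CMV-cre, a transgene that is active in every tissue, and the HP1α WT samples from Hp1a+/+ littermates. In the HP1γ line all mice were homozygous for the floxed Hp1g allele, and the HP1γ KO mice also carried Cd4-cre, which acts in T cells. The HP1γ WT samples are therefore Hp1g flox mice without Cre, so Cre and HP1γ loss cannot be told apart there. The lines were bred separately, so that line, colony and any strain-derived segment of chromosome 11 are confounded as well and cannot be told apart. Which segments each line carries was not analysed here.

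TRIM16 belongs to the tripartite-motif proteins, has B-boxes and a SPRY domain but no RING finger, and works with galectin-3 in the autophagy of damaged lysosomes. FBXW10 is a protein with an F-box and WD repeats, the architecture of the substrate receptors of SCF ubiquitin ligases. SMCR8 is a DENN-domain protein that forms a complex with C9orf72 and WDR41 and regulates autophagy and lysosomes, and mice without it are known for enlarged spleens and inflammation.

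All 3 genes are protein coding and lie on the plus strand of chromosome 11 (GRCm39). Smcr8 (ENSMUSG00000049323) spans 60668350 to 60686108. Trim16 (ENSMUSG00000047821) spans 62711057 to 62741634 and Fbxw10 (ENSMUSG00000090173) spans 62737882 to 62768295. Smcr8 ends 2.02 Mb before Trim16 begins. Fbxw10 begins only 26.8 kb after the start of Trim16, and the genes overlap by 3753 bp on the same strand. Smcr8 lies within Shmt1, which is read from the opposite strand, so that antisense reads could pass between them if counting ignored the strand.

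The overlap of Trim16 and Fbxw10 includes exonic sequence. Transcript Trim16-202 skips the usual end of the gene and finishes in its exon 7 at 62741398 to 62741634, whose first 171 bases are exon 2 of Fbxw10-201 (62741398 to 62741568). The 48 bases across these junctions are printed because they show why the reads of these genes can be confused. The capitals mark the 24 bases, chr11:62741398-62741421, that both transcripts share, and the lower-case bases are the exon before the junction, at chr11:62731547-62731570 for Trim16-202 and at chr11:62738598-62738621 for Fbxw10-201 (GRCm39, plus strand).
Trim16-202: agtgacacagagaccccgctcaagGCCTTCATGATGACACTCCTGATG
Fbxw10-201: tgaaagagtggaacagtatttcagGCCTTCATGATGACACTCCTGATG
A read that lies wholly in the shared exon fits either gene, while a read that crosses the junction fits 1 of them.

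**Figure D1:**
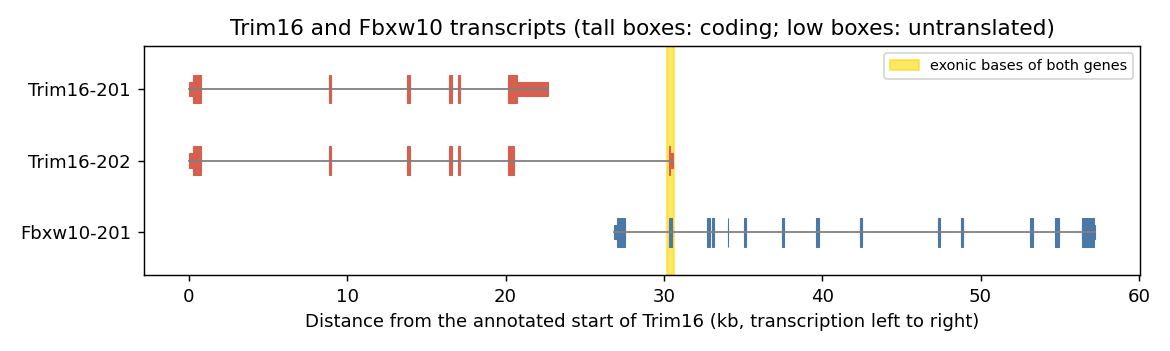
Exons of Trim16-201, Trim16-202 and Fbxw10-201, with distance from the annotated start of Trim16 in kb on the x axis and 1 transcript per line (tall boxes coding, low boxes untranslated). The yellow band, drawn wider than the exon so that it can be seen, marks the bases that are exonic in both genes; Trim16-201 ends before it, and Fbxw10 starts 26.8 kb into the plot.

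The 150 bases before the annotated starts of Trim16 and Fbxw10 (GRCm39, plus strand) are shown because transcription is annotated to begin after them, and because the overlapping pair differs there in its CpG content. The capitals mark CpG dinucleotides.
Trim16, chr11:62710907-62711056: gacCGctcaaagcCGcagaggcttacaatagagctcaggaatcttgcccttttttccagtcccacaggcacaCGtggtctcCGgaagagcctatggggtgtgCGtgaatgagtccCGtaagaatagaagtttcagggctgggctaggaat
Fbxw10, chr11:62737732-62737881: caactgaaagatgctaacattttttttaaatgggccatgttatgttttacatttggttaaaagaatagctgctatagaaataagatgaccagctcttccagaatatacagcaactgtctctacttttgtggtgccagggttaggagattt
Trim16 held 6 CpG and Fbxw10 0, where the median of 21770 protein-coding genes was 4. GC content was 53.3% and 35.3%, respectively. Of 4 motifs searched on both strands, Trim16 held CACGTG (in 4.09% of all such windows). Neither held TATAAA (in 7.73% of the windows), nor the motif CCAAT (27.2%), nor the motif GGGCGG (26.8%).

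The libraries held 26694045 to 40199637 counts (median 32360727). Against their own littermates the targeted genes followed the labels: Cbx5 was at 23.0 to 29.0 CPM (counts scaled to library size) in HP1α KO samples against 33.8 to 54.0 in HP1α WT, and Cbx3 at 45.9 to 50.3 CPM in HP1γ KO samples against 73.3 to 92.4 in HP1γ WT. Low Cbx5 did not mark the HP1α KO samples alone, since it was at 27.1 to 37.3 CPM in HP1γ WT and 20.1 to 29.8 in HP1γ KO. The 7 memory CD4+ T cell markers were all above 0 in every sample, with Cd4 at 556 to 836 TPM (counts scaled to library size and transcript length). No 2 libraries of a group agreed within sampling noise. The 7 summed B cell markers, mostly Ighm, separated the lines within each genotype, in the opposite direction to the members, but not over all samples, with 391 to 539 TPM in HP1α WT and 433 to 774 in HP1α KO against 301 to 358 in HP1γ WT and 291 to 427 in HP1γ KO. The 2 red cell globins together reached 32.5 to 958 TPM in HP1α WT, 63.0 to 350.4 in HP1α KO, 83.3 to 1032 in HP1γ WT and 161 to 2390 in HP1γ KO. The 4 dendritic cell markers summed to 12.5 to 21.6, 15.2 to 34.9, 14.2 to 54.8 and 30.6 to 128 TPM in the same order. The medians of both sets were higher in the HP1γ line, the direction of the members, though the ranges overlapped. In the same order they were 94.8, 190, 512 and 1818 TPM for the globins and 16.6, 16.7, 28.8 and 42.2 TPM for the dendritic cell markers. The part of these cells in the results was not tested, and in bulk RNA fewer cells of a type and less RNA per cell cannot be told apart.

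Trim16 showed the largest contrast of the 3 genes. In the HP1α line its estimated counts were 61.8, 60.6, 47.0 and 37 in the WT samples (replicates 1 to 4) and 39, 51.5, 57 and 48.0 in the KO samples. In the HP1γ line they were 961, 1110, 729 and 903 in the WT samples and 1057, 994, 806 and 989 in the KO samples. The lines were far apart in both genotypes, and WT and KO samples of 1 line overlapped, so that 0 of the 3 members separated a knockout from its littermates, beside 2.96% of all genes in the HP1α and 7.11% in the HP1γ line. After normalization Trim16 stood at 1.59 ± 0.325 CPM in HP1α WT, 1.38 ± 0.336 in HP1α KO, 27.2 ± 3.75 in HP1γ WT and 31.4 ± 6.90 in HP1γ KO (mean ± SD, n = 4 each). The lowest of the 8 HP1γ-line samples (22.1 CPM) was 11.5 times the highest of the 8 HP1α-line samples (1.93 CPM).

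The fitted difference of Trim16, HP1α line minus HP1γ line, was -4.10 on the log2 scale (SE 0.164) between WT samples and -4.51 (SE 0.211) between KO samples, that is 17.1-fold and 22.8-fold lower. All 4 HP1α WT samples lay below all 4 HP1γ WT samples, as they did for 10.7% of the 14804 genes tested, and the KO samples did the same, as for 15.9% of 15020 genes. By p-value, which served only to order the genes, Trim16 was number 2 in the WT and number 4 in the KO comparison.

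Per length, Trim16 was at 1.45, 1.18, 1.06 and 0.752 TPM in HP1α WT and at 0.512, 0.971, 1.21 and 0.899 TPM in HP1α KO. In HP1γ WT it was at 18.4, 17.2, 15.1 and 16.8 TPM, and in HP1γ KO at 25.9, 23.8, 17.4 and 17.9 TPM. On this scale, too, no sample of 1 line reached the other.

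Fbxw10, the downstream gene, had fewer reads and the same order of lines. Its estimated counts were 31.2, 43.4, 23 and 29 in HP1α WT and 47, 27.5, 22 and 24 in HP1α KO. They were 152, 248, 195 and 211 in HP1γ WT and 154, 237, 194 and 230 in HP1γ KO. Again the lines did not overlap and the genotypes within a line did. The group means were 0.957 ± 0.105 and 0.829 ± 0.258 CPM in HP1α WT and KO, and 5.89 ± 0.680 and 6.54 ± 1.05 CPM in HP1γ WT and KO (SD, n = 4). The lowest HP1γ-line sample was 4.19 times the highest HP1α-line sample.

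The difference of Fbxw10 between the lines was -2.62 (SE 0.175) in WT and -2.98 (SE 0.240) in KO samples on the log2 scale, or 6.16-fold and 7.86-fold lower in the HP1α line. It took place 6 by p-value in the WT and place 17 in the KO comparison. Per length Fbxw10 was the least abundant of the 3 genes, with means of 0.603, 0.551, 3.74 and 4.70 TPM in HP1α WT, HP1α KO, HP1γ WT and HP1γ KO.

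Smcr8 was expressed far more strongly and differed less. Its counts were 2722, 3162, 2106 and 2595 in HP1α WT and 3337, 2801, 2986 and 2861 in HP1α KO. In the HP1γ line they were 4180, 5590, 4285 and 4440 in WT and 3792, 4381, 4244 and 4684 in KO. Scaled to library size, all 16 values fell into 2 ranges by line, 73.7 to 89.1 CPM in the HP1α line and 120 to 149 CPM in the HP1γ line, so that the lowest HP1γ-line sample was 1.35 times the highest HP1α-line sample. The group means were 81.0 ± 3.29, 83.5 ± 6.99, 136 ± 5.05 and 138 ± 12.6 CPM in HP1α WT, HP1α KO, HP1γ WT and HP1γ KO (SD, n = 4).

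The line difference of Smcr8 was -0.75 (SE 0.0600) in WT and -0.72 (SE 0.0858) in KO samples, or 1.68-fold and 1.65-fold lower in the HP1α line. It was number 9 by p-value in the WT comparison but number 1058 by the size of the difference. In the KO comparison it was number 92 by p-value and number 1897 by size, of 15020 genes. Its replicates lay close together, with a coefficient of variation of 3.72% to 9.11% within groups. The difference of Smcr8 was small beside those of the other members. It is below the absolute log2 fold change of 1 that the study's definition of a differentially expressed gene asks for. Per length Smcr8 averaged 17.7, 18.3, 29.2 and 31.2 TPM in the 4 groups, so that in the HP1γ line Trim16 (16.9 and 21.3 TPM) approached Smcr8, and in the HP1α line Trim16 (1.11 and 0.898 TPM) was far below it.

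**Figure D2:**
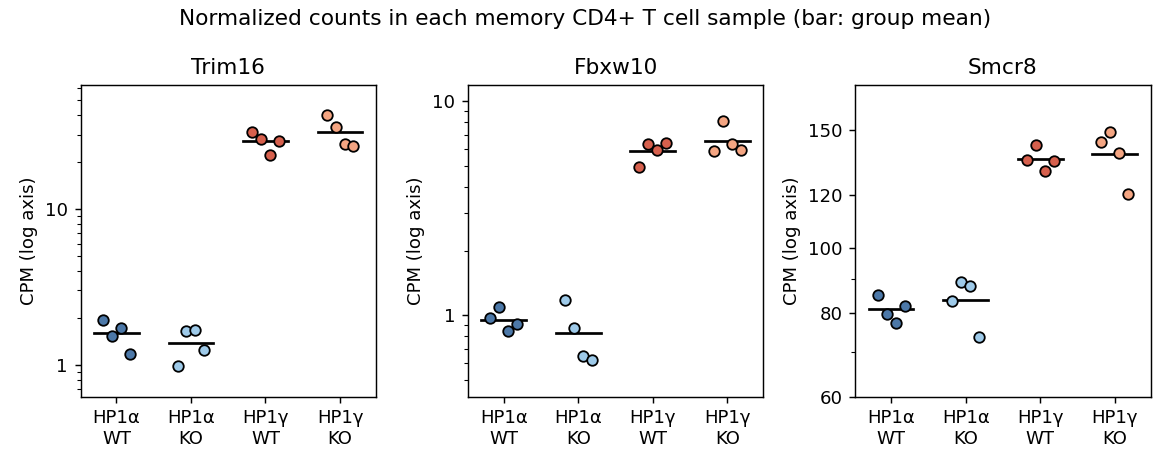
Normalized counts (CPM, log axis) of Trim16, Fbxw10 and Smcr8 in each sample, by group on the x axis; each point is a sample and each bar the mean of 4. In every panel the 8 HP1γ-line points lie above the 8 HP1α-line points, by at least 11.5, 4.19 and 1.35 times, and WT and KO points of a line overlap.

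Neither knockout changed any of the 3 genes detectably. By the quasi-likelihood test of edgeR, with p-values adjusted over all genes after Benjamini and Hochberg, the HP1α KO effect on Trim16 was -0.20 (SE 0.257, adjusted p = 0.954), on Fbxw10 -0.21 (SE 0.275, adjusted p = 0.956) and on Smcr8 0.044 (SE 0.0700, adjusted p = 0.965). In this comparison 0 of 14881 genes (0%) passed an adjusted p of 0.05, against 635 at an unadjusted p under 0.05 and 5 with DESeq2. The HP1γ KO effect was 0.21 on Trim16 (SE 0.154, adjusted p = 0.609), 0.16 on Fbxw10 (SE 0.150, adjusted p = 0.708) and 0.032 on Smcr8 (SE 0.0742, adjusted p = 0.897), where 0.327% of 14975 genes passed. Of the 3 members 0 passed in either line, also with DESeq2 and at an unadjusted p under 0.05.

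The intervals show how large a change these samples would still allow. For Smcr8 the 95% interval ran from 0.926-fold to 1.15-fold for HP1α loss and from 0.912-fold to 1.15-fold for HP1γ loss. For Trim16 it ran from 0.585-fold to 1.29-fold and from 0.914-fold to 1.47-fold, and for Fbxw10 from 0.567-fold to 1.32-fold and from 0.885-fold to 1.40-fold. The wide intervals in the HP1α line belong to counts of 22 to 62. The labels number the samples and the study does not say that each came from a separate mouse, so the p-values measure the spread between these samples.

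**Figure D3:**
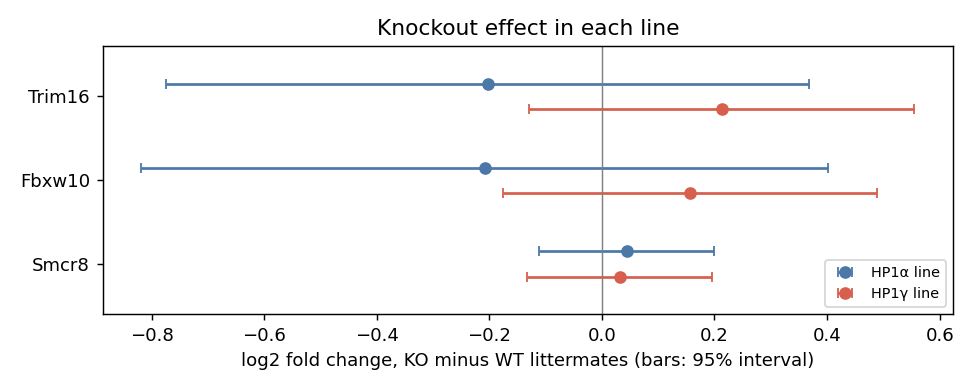
Log2 fold change of KO against WT littermates (x axis) for each gene, in the HP1α line (blue) and the HP1γ line (red), with 95% intervals as bars. Every interval crosses 0, and those of Smcr8 are the narrowest.

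Whether the knockout effect differed between the lines was computed as an interaction over all 16 samples. This equals the line difference between KO samples set against that between WT samples, and both served to choose the members. The choice could thus favour a small interaction, so the adjusted p-values do not decide the question for these genes. The estimate, HP1α effect minus HP1γ effect, was -0.41 for Trim16 (SE 0.277, edgeR adjusted p = 0.681), -0.36 for Fbxw10 (SE 0.275, adjusted p = 0.733) and 0.022 for Smcr8 (SE 0.102, adjusted p = 0.970). Across the 15776 genes tested 0.0507% passed. The sign for Smcr8 is not determined: it turned to -0.046 when limma was run on log2(TPM + 1), and was also below 0 without HP1α KO replicate 2, without HP1α KO replicate 3 or without HP1γ KO replicate 4 (-0.038 at the lowest). Its HP1γ KO effect turned to -0.010 without HP1γ KO replicate 2.

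The reads of Trim16 and Fbxw10 were not fully assigned to one gene. Salmon's estimated count was not a whole number for Trim16 in 9 of 16 samples, yet the sum of the Trim16 and Fbxw10 counts was whole within 0.01 counts in 16 of 16. The count of Smcr8 was whole in all 16. Fractional reads therefore passed only between the overlapping pair, whose shared exon is printed above, and the values of each of these genes are uncertain to that extent.

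Summing the pair removes that uncertainty. The summed feature differed between the lines, HP1α minus HP1γ, by -3.70 on the log2 scale (SE 0.125) in WT samples and by -4.10 (SE 0.159) in KO samples. Its KO effect was -0.20 (SE 0.186, edgeR adjusted p = 0.946) in the HP1α line and 0.20 (SE 0.132, adjusted p = 0.570) in the HP1γ line, with an interaction of -0.40 (SE 0.202, adjusted p = 0.546). Trim16 made up 56.1% to 67.1% of the summed count in HP1α WT, 45.3% to 72.2% in HP1α KO, 78.9% to 86.3% in HP1γ WT and 80.6% to 87.3% in HP1γ KO. The share was thus higher in each HP1γ-line sample than in each HP1α-line sample, and it is built from the values that chose the members.

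The number of counts per TPM follows the mean transcript length that Salmon assigned to a gene. Relative to its own mean it stayed within 97.8% to 102% for Smcr8 in all groups. For Trim16 it was 97.2% to 106.6% in the HP1γ line and 85.5% to 125% in the HP1α line, where counts were low. For Fbxw10 it reached from 48.3% to 134% in HP1α KO and from 89.1% to 121% in the other groups.

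Within a line the 3 genes showed no relation across samples that passed correction. Of 6 relations, computed over 8 samples each on log2 CPM, Trim16 and Smcr8 in the HP1γ line came nearest, with Pearson's r = 0.671 (exact permutation p = 0.0537, 0.322 after Benjamini-Hochberg adjustment) and Spearman's rho = 0.833 (exact permutation p = 0.0154, 0.0923 adjusted). Without the 2 samples farthest from the median of Trim16, r was 0.719. The same pair in the HP1α line had r = 0.277 (exact permutation p = 0.501), and Trim16 and Fbxw10, despite their overlap, had r = 0.106 (exact permutation p = 0.796) in the HP1γ line and -0.21 (exact permutation p = 0.627) in the HP1α line.

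Over all 16 samples the genes most like each member were ranked by Pearson's correlation of log2 CPM among 15776 genes, leaving out the other members, whose values follow at the end. The samples fall into 2 clusters by line, so such a value mainly restates the line difference and is given with no p. For Trim16 the leading genes were Gm11735 (r = 0.989), St6galnac2 (0.987), BC018473 (0.980), Bhlhe40 (0.979) and a second gene identifier with the symbol St6galnac2 (0.977). For Fbxw10 they were BC018473 (0.981), Gm11735 (0.975), St6galnac2 (0.973), St6galnac1 (0.968) and Mgat5 (0.959). Gm11735, BC018473, St6galnac1 and St6galnac2 are also on chromosome 11, between 116566129 and 116666333, and were lower in the HP1α line, with mean log2 CPM differences (HP1α minus HP1γ) from -8.87 for BC018473 to -3.78 for St6galnac1.

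Outside the members, Smcr8 was most like Mast4 (r = 0.980), Med26 (0.974), Pramel12 (0.972), Fzd4 (0.970) and Rab11fip1 (0.970), which are on other chromosomes. Among themselves the members had r = 0.974 for Trim16 with Fbxw10, 0.978 for Trim16 with Smcr8 and 0.970 for Fbxw10 with Smcr8, so that members would stand among the 5 leading genes of each list.

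The surroundings of the 3 genes, from 1 Mb before Smcr8 to 1 Mb after Fbxw10, held 55 other tested genes. Between WT samples 11 of them (20%) passed an adjusted p of 0.05 by edgeR, against 12.8% of all genes tested, 7 being lower and 4 higher in the HP1α line (all genes: 8.25% lower and 4.55% higher). Between KO samples 22 of 55 (40%) passed, against 32.8% of all genes, 12 lower and 10 higher (all genes: 16.8% and 16%). With an absolute log2 fold change above 1 as well, 2 neighbours (3.64%) were called in WT samples, beside 1.9% of all genes. In KO samples 4 (7.27%) were called, beside 4.33% of all genes. The median absolute line difference of these neighbours was 0.20 in WT and 0.22 in KO samples on the log2 scale, beside 0.20 and 0.27 over all genes. At 0.5 Mb on each side the shares were 23.3% (10 of 43) in WT and 47.7% (21 of 44) in KO samples, and at 5 Mb 15.9% (17 genes) and 31.8% (34 genes). The share called thus depended on the width, and the differences ran in both directions. The WT count fell to 6 without HP1α WT replicate 1, HP1α WT replicate 2 or HP1γ WT replicate 2, and to 7 without HP1α WT replicate 4 or HP1γ WT replicate 1.

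The WT and KO comparisons share no sample. Of the 54 neighbours tested in both, 11 were called in both, which is 100% of the WT calls and 50.0% of the KO calls, and all 11 had the same sign, as did all 1547 genes called in both over the whole table. Over all genes the shared calls were 82.3% of the WT calls and 31.8% of the KO calls. Along the whole of chromosome 11, 14.8% of 1147 genes passed in WT and 36.2% of 1164 genes in KO samples.

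The neighbours called in both comparisons have varied roles. Flcn (folliculin, a lysosomal regulator of mTORC1 signalling), Map2k3 (a kinase upstream of p38), Usp22 (a histone deubiquitinase of the SAGA complex), Alkbh5 (an RNA demethylase), Natd1, Specc1 and Zfp286 were lower in the HP1α line. Mapk7 (the kinase ERK5), Trpv2 (a cation channel), Mmgt2 and Zfp287 (a zinc-finger protein) were higher. Map2k3 had means of 125 ± 25.4 CPM in HP1α WT and 217 ± 31.0 in HP1γ WT, a difference of -0.80 (SE 0.147, edgeR adjusted p = 0.00949). Flcn had 60.2 ± 2.13 against 78.7 ± 6.91 CPM, a difference of -0.39 (SE 0.0757, edgeR adjusted p = 0.0120). Of those called only between KO samples, the leading ones were Dhrs7b, 2410006H16Rik, Ttc19, Top3a, Zswim7, Atpaf2, Flii, Fam83g, Ulk2 and Tom1l2.

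The genes next to Trim16 and Fbxw10 did not move as a block. Zfp287, the second tested gene before Trim16, was higher in the HP1α line by 0.92 (SE 0.117, edgeR adjusted p = 0.00259) in WT and by 1.11 (SE 0.129, adjusted p = 0.000795) in KO samples. Zfp286, which lies between Zfp287 and Trim16, was lower, at -1.60 (SE 0.465, adjusted p = 0.0472) and -2.71 (SE 0.623, adjusted p = 0.00946), but at group means of only 0.0962 to 0.651 CPM. Tvp23b, the first gene after Fbxw10, differed by -0.31 (SE 0.112, adjusted p = 0.0939) and -0.27 (SE 0.0926, adjusted p = 0.0458). Gm12286 (-0.21 and -0.13, adjusted p = 0.602 and 0.740) and Hmgb1-ps3 (-0.41 and 0.015, adjusted p = 0.263 and 0.976), the next tested genes, did not pass in either comparison.

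The genes next to Smcr8 were examined in the same way. Shmt1, the antisense gene that contains Smcr8 and codes for a serine hydroxymethyltransferase, was at group means of 3.41 to 3.99 CPM, with differences of 0.11 (edgeR adjusted p = 0.748) in WT and 0.23 (adjusted p = 0.377) in KO samples. Top3a, which is read from the opposite strand and begins beside the start of Smcr8, differed by -0.062 (adjusted p = 0.670) and -0.37 (adjusted p = 0.0107). Mief2 differed by -0.012 and -0.0074, and Dhrs7b by 0.20 (adjusted p = 0.267) and 0.56 (adjusted p = 0.00391). Tmem11 differed by -0.17 (adjusted p = 0.266) and -0.044 (adjusted p = 0.818). ENSMUSG00000120997, at group means of only 0.254 to 0.569 CPM, differed by -0.34 (SE 0.429, adjusted p = 0.643) and by -1.12 (SE 0.497, adjusted p = 0.105), the latter a larger but less precise estimate than that of Smcr8.

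Of the neighbours 0 of 54 passed in HP1α KO against WT and 0 of 54 in HP1γ KO against WT by edgeR. Over all genes 0% and 0.327% passed. At an unadjusted p under 0.05 there were 2 and 1 neighbours, beside 635 of 14881 and 1784 of 14975 genes. With DESeq2 there were 0 in both, beside 5 and 252 over all genes.

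**Figure D4:**
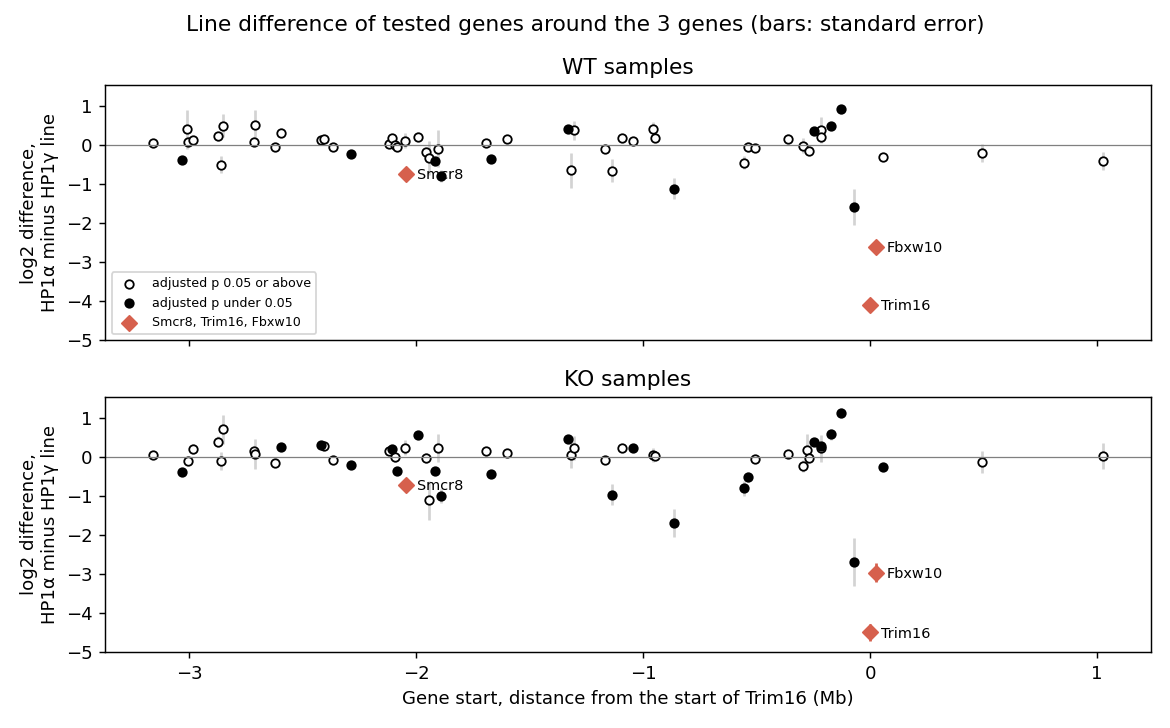
Log2 line difference (HP1α minus HP1γ, y axis) of each tested gene by the distance of its start from the start of Trim16 in Mb, for WT samples (top) and KO samples (bottom), with standard errors as bars. Filled points pass an adjusted p of 0.05, diamonds are the 3 members; filled points lie on both sides of 0, and Zfp287 (0.92 and 1.11) is the highest point just before Trim16.

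Genes that act with SMCR8 were also examined: 17 partners in its complex, in folliculin signalling and in the ULK1 kinase complex. Between WT samples 5 of 17 (29.4%) were called, all lower in the HP1α line, beside 12.8% of all genes. This count ranged from 2 to 7 under other settings. Flcn is counted both here and among the called neighbours above. Between KO samples 7 were lower and 1 higher (47.1%), beside 32.8%. The median difference of the list was -0.22 and -0.27 on the log2 scale, where the median of all genes was 0.015 and 0.010.

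C9orf72, which forms the complex with SMCR8, was lower in the HP1α line, with group means of 11.6 CPM in HP1α WT, 11.5 in HP1α KO, 23.4 in HP1γ WT and 30.5 in HP1γ KO. Its difference was -1.01 (SE 0.190, edgeR adjusted p = 0.0104) in WT and -1.40 (SE 0.217, adjusted p = 0.00217) in KO samples. Wdr41, the third subunit, did not follow, at 0.28 (SE 0.0830, adjusted p = 0.0508) and 0.16 (SE 0.0939, adjusted p = 0.213). Of the autophagy-initiating kinase complex, Ulk1 was lower, at -0.53 and -0.92 (adjusted p = 0.0142 and 0.00262) and so was its scaffold Rb1cc1, at -0.56 and -0.97 (adjusted p = 0.00937 and 0.00113). Flcn and its binding partner Fnip1 were lower in both comparisons, Fnip1 at -0.58 and -1.11 (adjusted p = 0.0155 and 0.00310). Fnip2 and the small GTPase Rab11a were lower, and Rab8a higher, in the KO comparison, at -0.94, -0.27 and 0.25, respectively.

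**Figure D5:**
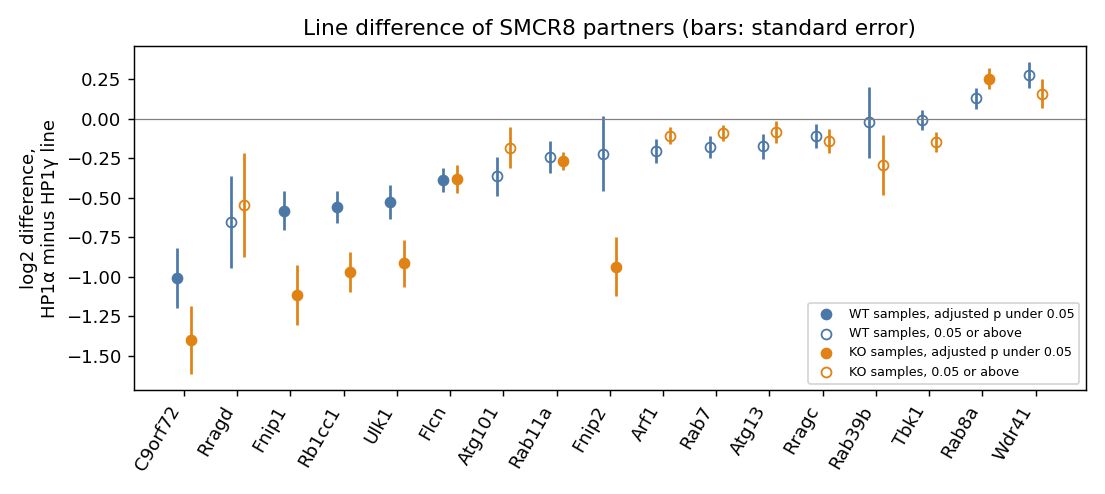
Log2 line difference (HP1α minus HP1γ, y axis) of the 17 partners of SMCR8, ordered by their value in WT samples (blue; KO samples orange), with standard errors as bars and filled points passing an adjusted p of 0.05. C9orf72 is the lowest (-1.01 and -1.40), and Wdr41 stays above 0 (0.28 and 0.16).

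Of the genes that work around TRIM16 in the clearance of damaged lysosomes, 21 of 22 were tested. Between WT samples 4 (19.0%) were called, beside 12.8% of all genes, and all were lower in the HP1α line. These were the autophagy receptor Tax1bp1 (-0.52, edgeR adjusted p = 0.00700), the ATG8-family genes Gabarapl1 (-0.66, adjusted p = 0.0359) and Map1lc3a (-0.71, adjusted p = 0.0298), and the stress-response factor Nfe2l2 (-0.44, adjusted p = 0.0273). Between KO samples 5 were lower and 4 higher (42.9%, beside 32.8% of all genes). The lower ones included Tax1bp1 and Gabarapl1, at -0.59 and -0.70 (adjusted p = 0.00104 and 0.00497). The galectins Lgals8 and Lgals9, which mark damaged lysosomes, were among the higher ones, at 0.30 and 0.25 (adjusted p = 0.00631 and 0.00877), as was Keap1 at 0.46. Lgals8, Lgals9 and Keap1 did not pass between WT samples (adjusted p = 0.0735, 0.373 and 0.178). Lgals3, the gene of galectin-3, passed in neither comparison, at -0.68 in WT and -0.018 in KO samples (adjusted p = 0.118 and 0.968). The median of the list was -0.067 in WT and -0.076 in KO samples, beside 0.015 and 0.010 over all genes.

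Of the SCF core subunits and FBXW receptors, 13 of 14 symbols were in the table and all 13 were tested. In WT samples 2 (15.4%) were called, near the 12.8% of all genes. Both were lower in the HP1α line, the adaptor Skp1 (-0.31, edgeR adjusted p = 0.0364) and the receptor Fbxw11 (-0.26, adjusted p = 0.0412). In KO samples Skp1, Fbxw11 and Fbxw2 were lower and Nedd8 higher (30.8%, beside 32.8% of all genes). The medians were -0.10 and -0.13, beside 0.015 and 0.010 over all genes. Among other TRIM genes, 40 of 67 were tested in WT samples and 4 (10.0%) were called, beside 12.8% of all genes. Trim36 (-1.57, adjusted p = 0.00569) and Trim13 (-0.66, adjusted p = 0.0401) were lower and Trim32 (0.63, adjusted p = 0.0177) and Trim12c (0.42, adjusted p = 0.0472) higher. In KO samples 9 of 41 were higher and 5 lower (34.1%, near the 32.8% of all genes), led by Trim27, Trim24, Trim14, Trim56, Trim36 and Trim23. The medians of the TRIM genes were 0.15 and 0.11, beside 0.015 and 0.010 over all genes.

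Of the 92 genes tested from the 4 lists, 0 passed by edgeR in HP1α KO against WT, with 4 at an unadjusted p under 0.05 and 0 with DESeq2. Over all genes these were 0%, 635 of 14881 and 5. In HP1γ KO against WT 0 of 92 passed, with 9 at an unadjusted p under 0.05 and 2 with DESeq2. Over all genes these were 0.327%, 1784 of 14975 and 252. In the interaction 0 of 94 passed, with 9 and 1, beside 0.0507%, 1511 of 15776 and 79 over all genes.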

How the data were processed

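Memory CD4+ T cell RNA was made into libraries with a stranded mRNA kit and sequenced in pairs. Per the labels and the study's methods, the authors aligned reads with STAR to GRCm39 and quantified them with Salmon through nf-core/rnaseq. The deposited gene tables hold estimated counts (11.6% of values not whole) and, in a second table, TPM by the authors. Whether counting used the strand is not given in the sources used here. Counts were rounded and tested with edgeR 4.0.16 (R 4.3.3): TMM scaling, filterByExpr with a minimum count of 10, quasi-likelihood test, Benjamini-Hochberg adjustment over all genes. SE was the log2 fold change over the root of F. CPM used TMM library sizes over 16 samples. Groups came from the genotype labels, while the treatment label describes another experiment and was not used. Alternatives were DESeq2 1.42.0, limma 3.58.1 on log2(TPM + 1) and log2(TPM + 0.1), RLE factors, no filter, a replicate block, all 16 samples in 1 fit, other widths and leaving out each sample. The summed pair, and the lists under other tools, were added after seeing the data. The code was tested on simulated data. Members and lists were chosen with earlier results of these data known. Genes named besides members were the 3 tested genes on each side, neighbours called in both line comparisons and up to 10 called in 1, the 5 most correlated genes, and up to 6 called genes per list. Wdr41, Rab8a and Lgals3 were named in addition. Sequences and positions came from the GRCm39 assembly, the build of the files, with a GENCODE annotation. The study names an Ensembl annotation for its reads, whose transcript models may differ from those shown here. The tables gave 56017 of 56748 genes a position. Protein sequences were not used here, and 1 upstream sequence is not reported here.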

Additional observations from a re-analysis of the deposited data

Results flagged for a closer look

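The share of Trim16 in the summed Trim16 and Fbxw10 count of HP1γ KO samples had 1 value far from the others: 87.3% in replicate 1, where the other replicates lay between 80.6% and 81.1%. Its gap to the nearest sample was 0.929 of the range of the group, above Dixon's critical value for 4 samples. It was 1 of 28 groups of values examined, and chance alone gives about 1 in 20. Replicate 1 was also the highest in HP1γ WT, at 86.3%, where the other replicates lay between 78.9% and 81.7%. In the HP1γ line only these replicate 1 samples had a whole Trim16 count, with no fractional reads shared with Fbxw10. Whether the assignment of shared reads gave the higher share was not tested.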

How the results depend on the processing

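The line differences of the members kept their sign under every alternative run. On log2(TPM + 1), which compresses low values by construction, Trim16 gave -3.09 in WT and -3.55 in KO samples and Fbxw10 -1.56 and -1.88. With edgeR on the summed counts of the pair, the differences were -3.70 and -4.10. For Smcr8 the interaction turned to -0.046 with limma on log2 TPM at a pseudocount of 1 or 0.1, and ranged from -0.038 to 0.080 leaving out 1 sample at a time. Its HP1γ KO effect ranged from -0.010 to 0.091. No KO effect of a member passed under any setting. Of the neighbours, 11 were called between WT samples. This count was 5 with limma on log2(TPM + 1), 6 with log2(TPM + 0.1), 17 with 5 Mb on each side (15.9% of the genes tested there), and 6 to 10 without 1 sample. With an absolute log2 fold change above 1 as well, it was 2, and 1 with no filter, 0 with either limma fit, 1 with all 16 samples in 1 fit and 0 to 2 without 1 sample. Between KO samples 22 became 34 with 5 Mb on each side (31.8%), and 4 with the fold threshold became 2 with limma on log2(TPM + 1) and 8 with 5 Mb. The deviations of same-numbered samples from their group means correlated from r = 0.0029 to 0.23 between KO and WT samples of a line. Between the lines they correlated from r = -0.20 to 0.071. Differently numbered samples were not compared, so whether the numbers pair littermates was not settled. With replicate number as a block, the HP1γ KO effect on Trim16 was 0.20 (SE 0.0854, edgeR adjusted p = 0.304). Without the block its SE was 0.154. With the replicate block the WT neighbour counts were 4 and 1, and the calls over all genes between WT samples fell from 1896 to 577. The block left 2 WT calls among SMCR8 partners, 1 among the lysosome list, 0 among SCF genes and 1 among TRIM genes, while DESeq2 gave 8 for the lysosome list and 7 for TRIM genes, and 1 fit of all 16 samples gave 8 and 8. The cause was not tested. Counts of 22 to 62 limit the precision of Trim16 and Fbxw10 in the HP1α line.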
